A study of Mus musculus with 12 samples.

Results

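PMN-MDSCs, the polymorphonuclear subset of myeloid-derived suppressor cells, were compared between mice treated with MS-275 and mice treated with vehicle. The comparison used 4 of the 12 libraries of the series, 2 per group, and every gene with at least 1 FPKM in at least 2 of these 4 libraries, which left 11029 of 24346 gene symbols. The mice were female C57BL/6J animals labelled WT and carried orthotopic Hepa 1-6 tumors, a mouse hepatoma line grown in the liver, and the cells were taken from the tumor by FACS as CD11b+ Ly-6C int Ly-6G+ cells. One group received vehicle and the other MS-275, a benzamide inhibitor of the class I histone deacetylases HDAC1, HDAC2 and HDAC3, by intraperitoneal injection. The spread between libraries was estimated together with 2 PMN-MDSC libraries of mice given CXD101, another inhibitor of these enzymes. A later comparison with M-MDSCs, the monocytic subset, used all 12 libraries, in which M-MDSCs also came from vehicle, MS-275 and CXD101 groups. In the study's general methods for this tumor model, mice were selected on a fixed day if MDSCs exceeded a set share of their blood cells. The study does not state that the PMN-MDSC libraries came from mice selected in this way. Whether animals were pooled for a library was not given in the sources used here. The study describes the samples of its MDSC expression data as biological replicates, but the labels do not say that the libraries of a group came from different mice, so the p-values measure the spread between libraries, which may be technical. FPKM, the deposited unit, divides the reads of a gene by its transcript length and by the size of the library.

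PMN-MDSCs resemble neutrophils that left the bone marrow early and restrain T cells in tumors. Neutrophil precursors make their granules in a fixed order: primary (azurophil) granules with myeloperoxidase and elastase at the promyelocyte stage, secondary (specific) granules with lactoferrin and cathelicidin at the myelocyte stage, and gelatinase granules and surface receptors later, with C/EBP-epsilon and Gfi1 as factors known to drive the specific-granule stage. HDAC1, HDAC2 and HDAC3 remove acetyl groups from histones within the NuRD, Sin3, CoREST and NCoR/SMRT complexes, and their inhibition raises histone acetylation and can both raise and lower transcripts.

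The deposited values give no read counts. From the steps between low values, the 4 libraries were estimated at 7080000 to 8230000 reads, on the assumption that the submitters' transcript lengths resembled annotated ones, so that 1 FPKM in a transcript of 2 kb stood for about 14.2 to 16.5 reads. Replicates correlated across genes with r = 0.989 under vehicle and 0.991 under MS-275 on the log2(FPKM + 1) scale. Itgam, which encodes the CD11b used for sorting, was listed at 825 and 895 FPKM under vehicle and 862 and 861 under MS-275, a log2 fold change of 0.00 ± 0.06 (SE), and the groups overlapped. Ly6c2, a gene for Ly-6C, was at 511 and 455 FPKM under vehicle and 1487 and 1677 under MS-275. This is a log2 fold change of 1.71 ± 0.10 (limma adjusted p = 9.10e-06), for a protein on which the cells were gated at an intermediate level, and its near-identical neighbor Ly6c1 cannot be fully separated from it. Ly6g was not analysed here. Of 11 neutrophil marker genes tested, 9 rose and 1 fell, beside 14.6% and 14.4% of all genes tested. Their summed level was 73700 to 99900 FPKM under vehicle and 262000 to 285000 under MS-275. Most of it was S100a8 and S100a9, at 66920 and 92250 FPKM under vehicle and 254110 and 230753 under MS-275. The list also holds granule genes described below, such as Ngp, Camp and Ltf, so it is no separate measure of purity.

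S100a8 and S100a9, the 2 subunits of the calcium-binding protein calprotectin, which is abundant in neutrophil cytosol, were the 2 most abundant transcripts in every PMN-MDSC library compared. S100a8 (chr3:90668978-90670035 in GRCm38) was at 35864 and 52947 FPKM under vehicle and 112553 and 94852 under MS-275, while S100a9 (chr3:90692632-90695721) was at 31056 and 39303 under vehicle against 141557 and 135901 under MS-275. The groups did not overlap for either gene, with log2 fold changes of 1.25 ± 0.19 (limma adjusted p = 9.92e-04) and 1.99 ± 0.14 (adjusted p = 2.20e-05). Their share of all FPKM was 10.2% and 13.7% under vehicle and 29.7% and 27.3% under MS-275. The FPKM of all other genes summed to 590013 and 582111 under vehicle and to 600280 and 613526 under MS-275. The sum of the other genes thus did not fall as the pair rose, as the plot of FPKM sums shows. Such a sum is not a fixed total and depends on how the libraries were scaled. It therefore cannot show whether the rise of the pair affected the values of other genes. The mean shares differed by 16.6 percentage points and the groups did not overlap. The difference in share is given without a test, because an exact permutation test of 2 against 2 libraries can give no two-sided p below 0.333. S100a8 lost its call when low genes were not filtered out, with an adjusted p of 0.0589, and under quantile normalization, which sets the top values of all libraries equal, its log2 fold change was -0.37 and that of S100a9 0.37.

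**Figure D1:**
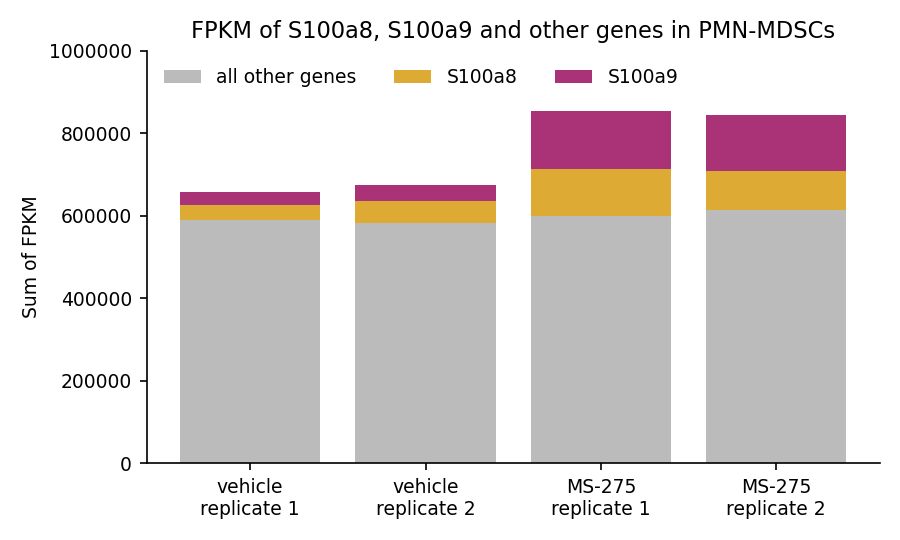
Sum of FPKM per PMN-MDSC library (vertical axis), divided into S100a8, S100a9 and all other genes; each bar is 1 library. The part of the other genes lies between 582111 and 613526 in all 4 bars, while the 2 S100 parts are larger under MS-275.

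Under MS-275, 1608 genes were expressed at a higher and 1584 at a lower level than under vehicle (limma adjusted p under 0.05 and a fold change above 1.5). These are 14.6% and 14.4% of the genes tested, the background against which each gene group below is read. Over the genes tested, the log2 fold change had a median of -0.03 and its standard error a median of 0.11. The groups did not overlap in any called gene, nor in 8546 (77.5%) of all genes tested. Separate groups are therefore no added support for a call. Among the genes that rose, 354 (22.0%) had a mean under 1 FPKM in the vehicle group; such a gene could pass the filter on low values only with the help of the MS-275 libraries. Among those that fell, 168 (10.6%) had a mean under 1 FPKM in the MS-275 group. In each gene list, the members that reached 1 FPKM in the libraries of 1 group only are therefore named or counted apart, since their difference itself brought them past the filter. The plot of fold change by level shows both directions over the whole range of expression.

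**Figure D2:**
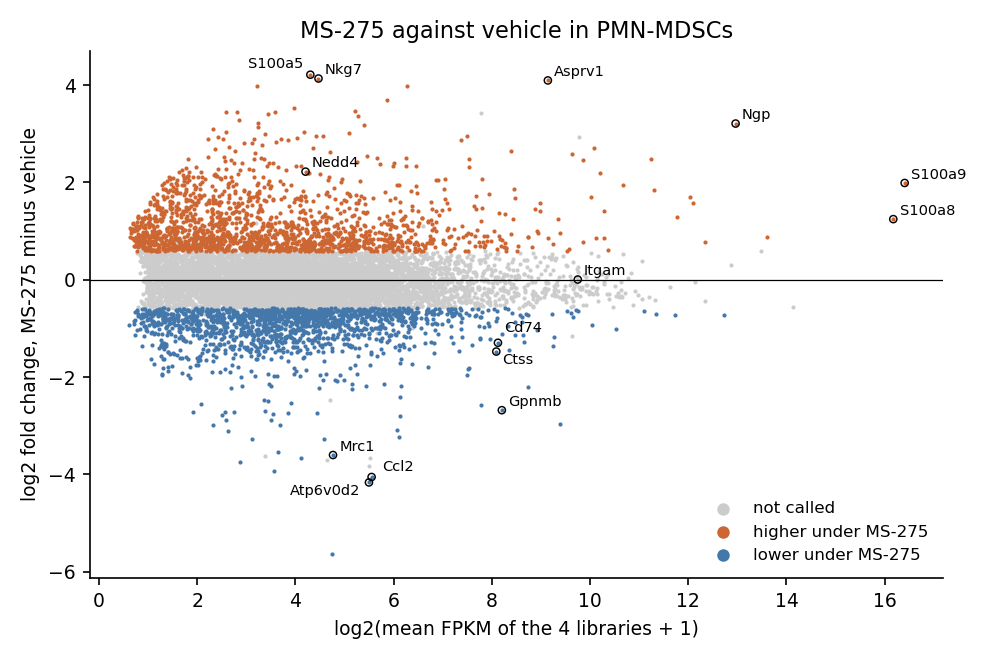
Log2 fold change of each of the 11029 genes tested (vertical axis, MS-275 minus vehicle) by its mean level (horizontal axis, log2 of mean FPKM + 1). Orange points were called higher, blue points lower and grey points not called; S100a8 and S100a9 lie farthest to the right of all genes, and Itgam lies at 0.

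The largest increases among genes of at least 5 FPKM joined transcripts that were almost absent under vehicle with a few that were already present. Asprv1, a retroviral-like aspartic protease that neutrophils also express, was listed at 59.7 and 63.05 FPKM under vehicle and 1018 and 1115 under MS-275, the highest level within this group of genes and 17.4 times its vehicle mean. Nkg7, a membrane protein of cytotoxic granules, was at 1.10 and 1.70 FPKM under vehicle and 41.7 and 40.2 under MS-275 (log2 fold change 4.14 ± 0.15, limma adjusted p = 1.93e-06). The groups did not overlap for either gene, as the choice of the largest increases required. Sytl3, a Rab27 effector in vesicle exocytosis, was at 0.107 and 0.110 FPKM and 15.4 and 17.7, so it passed the filter through the MS-275 libraries. Its annotated exons overlap those of Ezr on the other strand. The NK cell genes Ncr1 and Klrb1c were listed at 0 in all 4 libraries, and Prf1 (perforin) was at 0 and 0 under vehicle and 1.27 and 0.736 FPKM under MS-275. Cd3e was at 0 in 3 of the 4 libraries. Among the 15 lymphocyte and NK cell markers, 4 passed the filter, of which Nkg7, Cd3d and Cd79b rose and Cd79a fell, a call that was lost without vehicle replicate 2 (log2 fold change -0.60). Cd3d was under 1 FPKM in both vehicle libraries and Cd79a in both MS-275 libraries. The summed level of all 15 was 5.80 and 9.26 FPKM under vehicle and 52.3 and 50.6 under MS-275, and Nkg7 made up most of the latter.

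Ly6a (Sca-1), a surface antigen of the Ly-6 family found on stem cells and activated lymphocytes, rose from 11.4 and 5.67 to 140.2 and 146 FPKM. S100a5, a neighbor of S100a8 on chromosome 3, was at 2.93 and 0 FPKM under vehicle and 40.4 and 31.8 under MS-275. Serpinb2, an inhibitor of plasminogen activators whose exons overlap Serpinb10, rose from 6.73 and 8.05 to 108 and 108 FPKM, and Nrep, a small neuronal protein, from 6.35 and 5.37 to 71.00 and 68.6. None of these 4 genes had overlapping groups, which their choice among the largest increases required. Of the 11 S100a genes of chromosome 3 that were tested, 6 rose and none fell, a stretch chosen after the values were seen. Ppbp, the CXCL7 chemokine that platelets store, was at 3.71 and 0.263 FPKM under vehicle and 23.7 and 31.1 under MS-275. Of the 3 platelet markers that reached 1 FPKM in both groups, Ppbp rose and none fell. Gp1bb and Gp9 were also called higher, but both were under 1 FPKM in the vehicle libraries and passed the filter through the MS-275 libraries. The platelet chemokine Pf4 was at 30.00 and 17.96 FPKM under vehicle and 23.4 and 25.1 under MS-275, and the part of platelet RNA in the Ppbp result was not tested. The other increases of this size were the selenoprotein Selm (1.34 and 0.690 to 18.3 and 23.7 FPKM), the fatty acid hydroxylase Cyp4a12a (1.01 and 0.729 to 20.3 and 17.3), the actin-binding Coro6 (0.617 and 0.106 to 12.4 and 11.6), the adhesion receptor Adgrg1 (0.839 and 0.787 to 14.3 and 17.6), the class I gene H2-Q8 (0.00352 and 0.000940 to 8.62 and 11.5), which shares reads with close copies and is uncertain, and Mir8097. Coro6, Adgrg1 and H2-Q8 were under 1 FPKM in both vehicle libraries and passed the filter through the MS-275 libraries. Mir8097, which lies within an exon of Rnf19a, was at 25.3 and 0 FPKM and 38.7 and 81.3. Its call was lost without MS-275 replicate 1 (adjusted p = 0.0804) and without MS-275 replicate 2 (0.170).

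The largest decreases included several genes known from macrophages. Mrc1, the mannose receptor CD206, was at 50.6 and 47.99 FPKM under vehicle and 3.32 and 2.96 under MS-275, a log2 fold change of -3.60 ± 0.11 (limma adjusted p = 7.11e-07). Mgl2, a C-type lectin of alternatively activated macrophages, was at 34.5 and 27.3 under vehicle against 1.84 and 1.20 FPKM under MS-275. The complement gene C1qb was at 23.7 and 18.8 under vehicle against 0.608 and 0.288 FPKM under MS-275. In each of them the MS-275 libraries lay below the vehicle libraries, as the choice of the largest decreases required. Ccl17, a ligand of CCR4, fell from 128 and 111 to 12.6 and 13.5 FPKM. Atp6v0d2, a subunit of the vacuolar proton pump, fell from 85.1 and 84.1 to 4.43 and 3.18 FPKM, and Ccl2, the ligand of CCR2, from 92.7 and 81.9 to 2.81 and 6.36. C1qc, the lipid carrier Fabp4, the aminopeptidase Anpep (CD13), the membrane repair protein Myof and cathepsin K (Ctsk) fell, with log2 fold changes of -2.98 to -3.54. C1qb, C1qc, Anpep and Ctsk were under 1 FPKM in both MS-275 libraries and passed the filter through the vehicle libraries. Rnase2a, of the eosinophil-associated ribonucleases, and 2010005H15Rik, a stefin A gene, fell by 3.28 and 3.24; both belong to families of near-identical copies, so their values are uncertain. The small RNAs Mir1668 and Snora23 were at 68.3 and 34.7 and at 10.04 and 15.4 FPKM under vehicle, while neither MS-275 library listed them above 0. Mir1668 lies within an exon of Adgre5, and the length scaling of such short transcripts makes these values uncertain.

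In bulk RNA, fewer cells of a type and less RNA per cell cannot be told apart. Of the 9 monocyte and macrophage markers that reached 1 FPKM in both groups, 4 fell and 3 rose, with a median log2 fold change of -0.35 beside -0.03 over all genes. The 5 other markers tested, among them the complement genes C1qa, C1qb and C1qc, were called lower as well, but they were under 1 FPKM in both MS-275 libraries and passed the filter through the vehicle libraries. Csf1r, the receptor for macrophage colony-stimulating factor, was at 159.9 and 145 FPKM under vehicle and 59.9 and 64.1 under MS-275, and Trem2 was at 54.9 and 46.02 under vehicle against 10.6 and 11.95 under MS-275. Adgre1, which encodes F4/80, was at 88.4 and 86.6 under vehicle against 78.6 and 88.01 FPKM under MS-275, with overlapping groups, and Apoe rose from 13.8 and 16.4 to 45.2 and 51.1. The decrease thus did not extend to every macrophage gene measured. The summed level of the list was 1350 to 1500 FPKM under vehicle and 1990 to 2210 under MS-275, in which Ly6c2, a member, took the largest part. All 4 dendritic cell markers that reached 1 FPKM in both groups fell, beside Cd209a, which reached it under vehicle alone. The 10 markers of the list had a summed level of 114 to 153 FPKM under vehicle and 48.5 to 48.6 under MS-275. Zbtb46, which defines conventional dendritic cells, was at 0.771 to 0.806 FPKM under vehicle and 0.276 to 0.318 under MS-275. Mast cell and basophil markers fell in 4 of the 5 that reached 1 FPKM in both groups, and Fcer1a, which reached it under vehicle alone, was called lower too. Those that fell include Mcpt8 (27.4 and 36.9 to 10.3 and 14.04 FPKM) and Cpa3 (9.26 and 13.4 to 2.40 and 1.09). The part of such cells in the genes that fell was not tested. Of 15 hepatocyte and hepatoma markers, 12 stayed below the filter, with Alb, Ttr and Fgb at 0 in all 4 libraries, and the summed level of 157 to 163 FPKM under vehicle and 270.0 to 274 under MS-275 came mostly from transferrin (Trf), which rose from 161 and 155 to 268 and 270.5 FPKM. The globin genes Hba-a1 and Hba-a2 were at 0 in all 4 libraries. Of the 7 eosinophil markers that reached 1 FPKM in both groups, none rose and 1 fell, Ccr3 passed the filter through the MS-275 libraries and was called higher, and stromal and endothelial markers rose in 1 of 3 and fell in 1.

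Secondary granule genes rose together. Of 11 members tested, 9 rose, none fell and the median log2 fold change was 1.94. Ngp, neutrophilic granule protein, was at 1494 and 1625 FPKM under vehicle and 14556 and 14306 under MS-275 (log2 fold change 3.21 ± 0.07, limma adjusted p = 3.19e-07). Camp, the precursor of the antimicrobial peptide CRAMP, was at 295 and 278 under vehicle against 1821 and 1954 FPKM under MS-275 (2.71 ± 0.07, adjusted p = 3.37e-07). Ltf, the iron-binding protein lactoferrin, was at 693 and 760.03 under vehicle against 4077 and 4098 FPKM under MS-275 (2.49 ± 0.07, adjusted p = 4.82e-07). The replicates of a group differed little beside the gap between the groups: Ngp averaged 1559 ± 92.3 FPKM under vehicle and 14431 ± 176 under MS-275 (mean ± SD, n = 2). Cd177, a surface protein stored in specific granules, rose from 268 and 301 to 1552 and 1601 FPKM, the collagenase Mmp8 from 609 and 733 to 2592 and 2555, the chitinase-like Chil3 from 1969 and 1995 to 6574 and 6347, the siderophore-binding Lcn2 from 2096 and 2322 to 6367 and 6801, Itgb2l from 45.7 and 54.4 to 206 and 220.2 and ficolin B (Fcnb) from 15.3 and 12.5 to 47.4 and 52.9. The 2 members that did not pass were haptoglobin (Hp), at 442 and 421 under vehicle against 495 and 564 FPKM under MS-275, and lysozyme (Lyz2), at 9421 and 9033 under vehicle against 13701 and 13914 under MS-275. Lyz2 was apart between groups with a log2 fold change of 0.58 ± 0.07, under the fold limit.

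**Figure D3:**
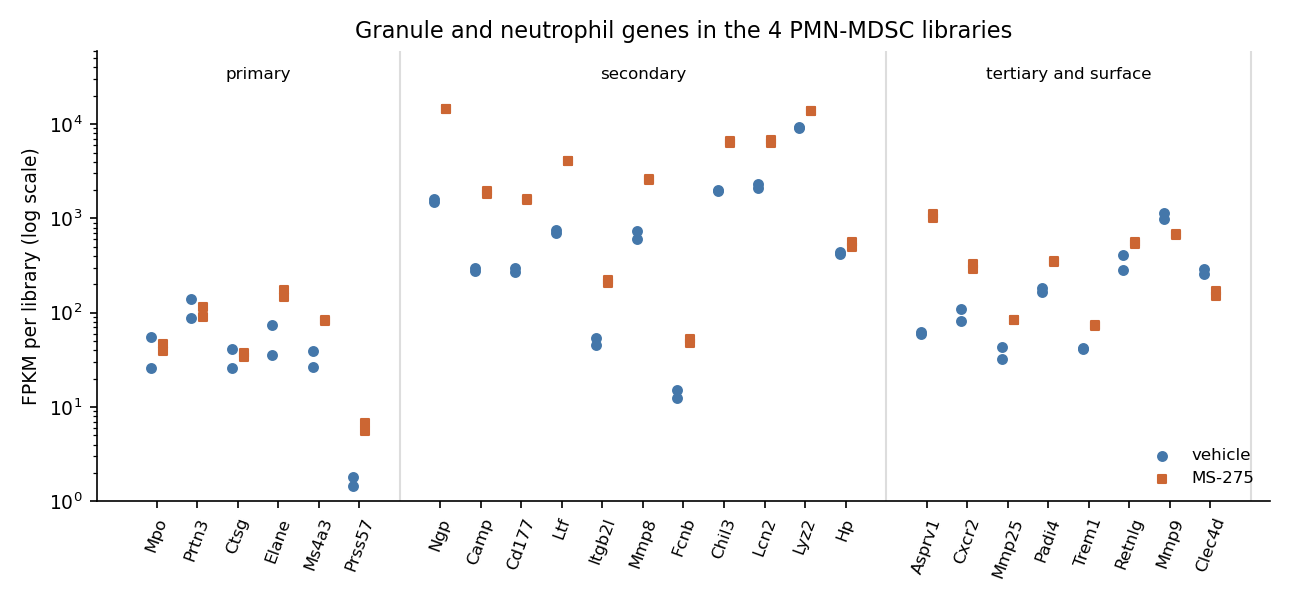
FPKM per library (vertical axis, log scale) of primary granule, secondary granule and later neutrophil genes; blue circles are the 2 vehicle libraries and orange squares the 2 MS-275 libraries. Secondary granule genes such as Ngp, Camp and Ltf are separated by far more than the replicates differ, while Mpo, Ctsg and Prtn3 overlap.

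Camp, Ngp and Ltf lie on chromosome 9 within 1.2 Mb (chr9:109847379-109849617, chr9:110419747-110423012 and chr9:111019271-111042767 in GRCm38). Of the 17 genes tested between Camp and Ltf, including both, 6 rose and 1 fell. This stretch was chosen after the values were seen. Klhl18 and Kif9, the 2 genes next to Ngp on its downstream side, rose by 1.21 ± 0.08 and 1.05 ± 0.16 on the log2 scale. Kif9 was at 0.532 and 0.909 FPKM under vehicle, so it passed the filter through the MS-275 libraries and its increase is no separate evidence. Smarcc1, a subunit of the SWI/SNF remodeling complex, fell by 0.95. The 250 bases before the RefSeq start site of the 3 granule genes are shown because the 3 transcripts moved together, with matches to the letters TTNCNNAA on either strand, a loose form of the C/EBP motif, in capitals (RefSeq, GRCm38.p6, 5′ to 3′ on the gene's strand). Such a match stands in 36.8% of all 32851 promoter windows of this length, so its presence is only a description.
Ngp (chr9:110419558-110419807, plus strand): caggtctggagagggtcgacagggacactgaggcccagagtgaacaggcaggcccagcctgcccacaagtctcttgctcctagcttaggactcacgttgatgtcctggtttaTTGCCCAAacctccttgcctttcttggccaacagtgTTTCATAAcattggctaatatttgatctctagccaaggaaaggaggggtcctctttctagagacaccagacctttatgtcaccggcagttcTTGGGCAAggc
Camp (chr9:109849457-109849706, minus strand): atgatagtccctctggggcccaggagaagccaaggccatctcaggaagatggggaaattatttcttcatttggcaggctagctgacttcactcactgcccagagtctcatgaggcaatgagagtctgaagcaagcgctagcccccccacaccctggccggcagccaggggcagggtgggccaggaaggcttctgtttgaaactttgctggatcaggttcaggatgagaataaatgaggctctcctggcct
Ltf (chr9:111019042-111019291, plus strand): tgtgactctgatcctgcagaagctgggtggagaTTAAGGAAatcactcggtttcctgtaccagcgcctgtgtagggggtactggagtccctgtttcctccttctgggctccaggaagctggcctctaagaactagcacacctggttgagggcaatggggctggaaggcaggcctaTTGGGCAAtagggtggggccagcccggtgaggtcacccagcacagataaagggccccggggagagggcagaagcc
In this window Ngp holds 3 matches, Ltf 2 and Camp 0. The RefSeq starts lie within the gene spans given above, which came from GENCODE. Part of each window, with the Ngp match nearest the start, thus falls inside the gene as GENCODE places it.

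Primary granule genes divided. Elane (neutrophil elastase) was at 74.7 and 35.6 FPKM under vehicle and 146 and 172 under MS-275, Ms4a3 at 39.4 and 26.5 under vehicle against 81.01 and 83.4 under MS-275, and the serine protease Prss57 at 1.44 and 1.81 under vehicle against 5.62 and 6.77 under MS-275; all 3 rose. Mpo (myeloperoxidase), at 55.3 and 25.9 under vehicle against 38.9 and 46.5 FPKM under MS-275, cathepsin G (Ctsg), at 41.2 and 25.7 under vehicle against 34.3 and 37.3 under MS-275, and proteinase 3 (Prtn3), at 141 and 88.03 under vehicle against 90.7 and 115 under MS-275, did not pass the test, and in each of them the groups overlapped. For these 3 genes the vehicle libraries differed from each other by more than the group means did. Exons of Prtn3 overlap Plppr3. Of 6 members tested, 3 rose and none fell (median log2 fold change 0.74).

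Genes of gelatinase granules and of mature neutrophils moved in both directions: 8 of 20 rose, 2 fell and the median log2 fold change was 0.37. Cxcr2, the receptor that draws neutrophils out of the marrow, was at 80.8 and 109 FPKM under vehicle and 327 and 294 under MS-275 (log2 fold change 1.71 ± 0.13). Mmp25 rose from 32.6 and 43.2 to 84.4 and 83.6 FPKM, and Padi4, which citrullinates histones in extracellular traps, from 167 and 184 to 344 and 355. Mmp9 (gelatinase B) fell from 978 and 1144 to 668 and 681 FPKM, a call that was lost without vehicle replicate 2 (log2 fold change -0.54), and the lectin Clec4d fell from 256 and 289 to 169 and 149. Wfdc21 had the highest level in the list, at 1833 and 1863 under vehicle against 2416 and 2409 FPKM under MS-275. The group was therefore not shifted as a whole in the way the secondary granule genes were.

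The subunits of the NADPH oxidase, which makes superoxide for microbial killing and for suppression of T cells, differed as well. Cybb (gp91phox), the catalytic subunit, rose from 199.7 and 209 to 492 and 481 FPKM (log2 fold change 1.25 ± 0.06). Cyba (p22phox), the membrane partner of Cybb and the most abundant subunit, was at 1602 and 1443 FPKM under vehicle and 1103 and 1215 under MS-275, under the fold limit in the other direction. In all, 2 of 6 rose and none fell, beside 14.6% and 14.4% of all genes tested. With FPKM rescaled to a total without S100a8 and S100a9, 1 rose.

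Transcription factors of the myeloid lines moved in both directions. Cebpe (C/EBP-epsilon) was at 45.5 and 43.1 FPKM under vehicle and 182 and 191 under MS-275, a log2 fold change of 2.05 ± 0.08 (limma adjusted p = 1.95e-06). Gfi1, a repressor that favors granulocytes over monocytes, rose from 3.63 and 3.24 to 15.7 and 17.04 FPKM and Cebpa from 20.9 and 17.6 to 37.8 and 39.5. Klf4, which favors monocytes, fell from 17.97 and 17.7 to 3.54 and 3.97 FPKM, and Irf8, a factor of monocytes and dendritic cells, from 16.5 and 11.2 to 5.99 and 6.33. No library of one group reached into the other for these 5 factors, as for every called gene. Maf, Irf5, Egr2, Zeb2 and Atf3 also fell, with log2 fold changes of -0.96 to -1.89, and Bcl6, Egr1 and Id1 rose by 0.67 to 1.26. Spi1 (PU.1), common to both lines, was at 407 and 362 under vehicle against 403 and 433 FPKM under MS-275 with overlapping groups. Of the 31 factors that reached 1 FPKM in both groups, 6 rose, 7 fell and the median log2 fold change was 0.05. Over all genes tested, 14.6% rose and 14.4% fell.

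MHC class II genes fell in 6 of the 7 that reached 1 FPKM in both groups, with a median log2 fold change of -1.13. H2-Aa, an alpha chain, was at 80.6 and 59.7 FPKM under vehicle and 18.9 and 20.7 under MS-275 (log2 fold change -1.76 ± 0.13, limma adjusted p = 3.74e-05), and H2-Eb1, a beta chain, at 42.8 and 27.6 under vehicle against 9.54 and 6.93 under MS-275 (-1.95 ± 0.20). Ciita, the coactivator that switches the class II genes on, was at 3.57 and 2.54 under vehicle against 0.395 and 0.399 FPKM under MS-275, so that it passed the filter through the vehicle libraries, and the invariant chain Cd74, the most abundant member, at 440.05 and 353 under vehicle against 159 and 161 under MS-275. All 4 genes were lower in both MS-275 libraries than in either vehicle library, as was every gene called lower. H2-DMb1 did not follow, at 27.8 and 18.6 under vehicle against 28.3 and 23.6 FPKM under MS-275. The dendritic cell markers, among them H2-Ab1, itself a class II gene, fell beside this list as given above, and their part in it was not tested. The 250 bases before H2-Aa and H2-Eb1 are shown because both fell with Ciita, which acts through the X and Y boxes of class II promoters; the capitals mark CTGATTGG, the core of the Y box, searched on both strands and found in 3.83% of all promoter windows.
H2-Aa (chr17:34287824-34288073, minus strand): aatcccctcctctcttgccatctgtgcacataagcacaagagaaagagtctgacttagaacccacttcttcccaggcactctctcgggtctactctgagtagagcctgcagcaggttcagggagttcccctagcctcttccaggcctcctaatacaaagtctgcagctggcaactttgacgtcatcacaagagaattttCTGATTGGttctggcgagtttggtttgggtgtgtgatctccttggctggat
H2-Eb1 (chr17:34305617-34305866, plus strand): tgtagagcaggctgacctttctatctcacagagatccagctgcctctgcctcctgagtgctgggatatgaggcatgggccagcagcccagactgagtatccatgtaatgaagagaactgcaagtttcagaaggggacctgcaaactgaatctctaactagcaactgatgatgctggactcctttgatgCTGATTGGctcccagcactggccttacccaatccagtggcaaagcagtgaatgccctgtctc
MHC class I and its peptide-loading genes did not move as a group: of 13 tested, H2-K1 rose (289.7 and 201 to 366 and 392 FPKM), the immunoproteasome subunit Psmb10 fell (42.4 and 33.8 to 12.98 and 14.3), and B2m was at 1332 and 1344 under vehicle against 1994 and 1875 under MS-275. The call of H2-K1 was lost without vehicle replicate 2 (log2 fold change 0.39) and without MS-275 replicate 2 (adjusted p = 0.0622), and it shares reads with other class I genes.

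**Figure D4:**
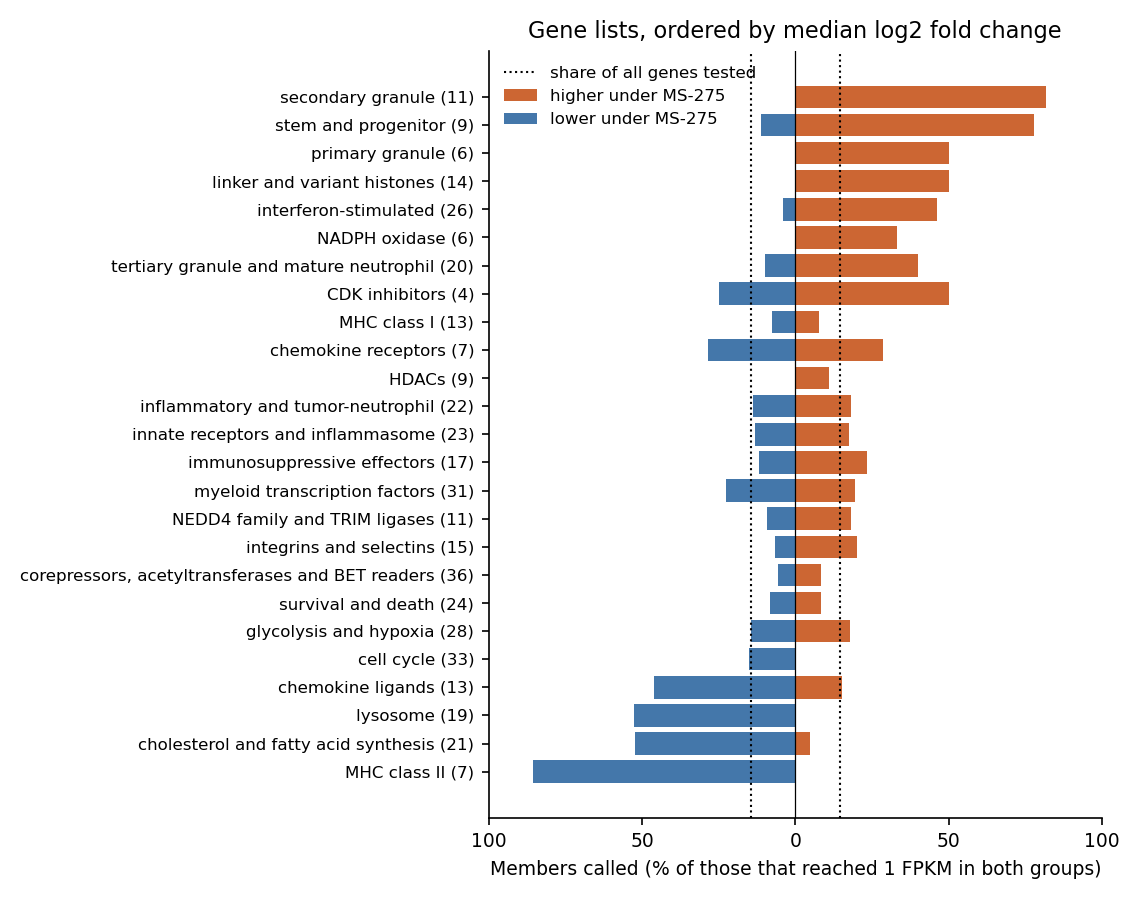
Share of the members of each pathway gene list that was called higher (orange, to the right) or lower (blue, to the left) under MS-275, in percent; the number of members that reached 1 FPKM in both groups stands in brackets, cell type marker lists are not drawn, and the dotted lines mark the share of all genes tested. Secondary granule and stem and progenitor genes reach farthest to the right, MHC class II, cholesterol and fatty acid, and lysosome genes farthest to the left.

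Lysosome genes fell in 10 of 19 and rose in none, with a median log2 fold change of -0.60. Gpnmb, a glycoprotein of lysosome-rich macrophages, was at 568 and 452 FPKM under vehicle and 72.9 and 83.6 under MS-275 (log2 fold change -2.68 ± 0.14). The proteases Ctss and Lgmn, which process antigens in endosomes, fell from 403 and 398 to 144 and 143 and from 88.05 and 73.4 to 28.2 and 27.4 FPKM. Cathepsin D (Ctsd) fell from 4452 and 4053 to 2479 and 2641 FPKM, while Lamp1, at 593 and 564 under vehicle against 525 and 499 FPKM under MS-275, stayed within the fold limit. Psap, the precursor of the saposins and the most abundant member, was at 6342 and 5539 under vehicle against 4317 and 4480 FPKM under MS-275.

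Genes of cholesterol and fatty acid synthesis fell in 11 and rose in 1 of the 21 that reached 1 FPKM in both groups, with a median log2 fold change of -0.61. Scd1 and Scd2, the stearoyl-CoA desaturases, fell from 9.73 and 8.20 to 0.254 and 0.669 FPKM and from 116 and 95.9 to 32.9 and 30.3, Scd1 being the member that passed the filter through the vehicle libraries. Insig1, a sterol-responsive regulator of the SREBP pathway, fell from 39.4 and 37.3 to 14.01 and 12.4 FPKM and Cyp51 from 26.8 and 24.4 to 10.96 and 9.98. In contrast, Fdps, the farnesyl diphosphate synthase, rose from 181 and 151 to 288 and 334 FPKM, and Srebf2, which drives the sterol genes, was at 89.3 and 81.00 under vehicle against 86.8 and 95.1 under MS-275.

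Chemokine ligands fell in 6 and rose in 2 of the 13 that reached 1 FPKM in both groups (median log2 fold change -0.56). Ccl2, Ccl7 (10.2 and 8.90 to 0.438 and 0.415 FPKM), Ccl17 and Ccl22 (58.9 and 54.95 to 11.9 and 12.3) fell most, Ccl7 after passing the filter through the vehicle libraries, and Ccl6, the most abundant ligand, fell from 8273 and 8539 to 5183 and 5019 FPKM. Ccl4 fell from 91.8 and 68.6 to 37.97 and 46.6 FPKM and Ccl3 was at 602 and 554 under vehicle against 573 and 527 under MS-275. The CXCR2 ligands moved the other way, with Cxcl3 at 36.9 and 40.1 FPKM under vehicle and 307 and 271 under MS-275 (log2 fold change 2.87 ± 0.08) and Cxcl2 at 165 and 155 under vehicle against 301 and 295 under MS-275 (0.89 ± 0.06). Both Cxcl2 and Cxcl3 and their receptor Cxcr2 were therefore higher under MS-275, while ligands of CCR2 and CCR4 were lower. Among the 7 chemokine receptors that reached 1 FPKM in both groups, 2 rose and 2 fell, beside 14.6% and 14.4% of all genes tested. Ccr3 was called higher and Cx3cr1 lower after passing the filter through 1 group. Cxcr4, which retains neutrophils in the marrow, rose from 66.3 and 73.8 to 163 and 159 FPKM, and Ccr7 and Cx3cr1 fell from 9.77 and 8.28 to 2.14 and 2.38 and from 1.30 and 1.40 to 0.295 and 0.244. Ccr2, the chemokine receptor at the center of the study, was at 40.7 and 35.7 FPKM under vehicle and 29.96 and 29.4 under MS-275. Both MS-275 libraries lay below both vehicle libraries but within the fold limit (log2 fold change -0.35 ± 0.08, limma adjusted p = 0.00899). The study's CCR2 result concerned protein on M-MDSCs, which these RNA values do not measure, and it reported CCR2 absent from cultured PMN-MDSCs. M-MDSCs under vehicle were at 147 and 137 FPKM of Ccr2. Ccr1, the most abundant receptor, was at 206 and 229.8 under vehicle against 275 and 257 under MS-275.

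Of 17 effectors by which MDSCs suppress T cells, 4 rose and 2 fell, beside 14.6% and 14.4% of all genes tested. Their median log2 fold change was 0.06. Arg1 (arginase 1) fell from 32.99 and 37.4 to 9.44 and 11.5 FPKM (log2 fold change -1.66 ± 0.20), whereas Nt5e (CD73), which makes adenosine, rose from 18.4 and 25.5 to 133 and 124 (2.51 ± 0.14). Olr1 (LOX-1), a surface marker of human PMN-MDSCs, rose from 15.03 and 15.8 to 25.7 and 22.9 FPKM. It was within the fold limit (0.57) with FPKM rescaled to a total without S100a8 and S100a9. The other 2 that rose were S100a8 and S100a9. Wfdc17 fell from 412 and 340.5 to 48.96 and 78.5 FPKM. Cd274 (PD-L1) was at 84.7 and 88.9 FPKM under vehicle and 66.2 and 59.2 under MS-275, below both vehicle libraries but within the fold limit, Arg2 was at 67.5 and 76.00 under vehicle against 76.1 and 73.6 under MS-275 with overlapping groups, and Nos2 and Il10 stayed below the filter. Of 22 inflammatory genes tested, 4 rose and 3 fell, near the 14.6% and 14.4% of all genes tested. Il1b was at 133 and 149.9 under vehicle against 166 and 169 FPKM under MS-275 and Tnf at 110.1 and 115 under vehicle against 95.5 and 107 under MS-275, neither past the fold limit. Vegfa rose from 25.5 and 25.02 to 42.02 and 41.9 FPKM. Osteopontin (Spp1) fell from 206 and 212 to 86.3 and 82.5 FPKM, cystatin B (Cstb) from 831 and 868 to 382 and 369, and Nfkbiz rose from 11.7 and 12.7 to 24.7 and 28.5.

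Interferon-stimulated genes rose in 12 and fell in 1 of the 26 that reached 1 FPKM in both groups, with a median log2 fold change of 0.53. Ifit2 and Oasl1 were called higher too, but passed the filter through the MS-275 libraries. Ifitm1, an antiviral membrane protein, was at 451 and 389 FPKM under vehicle and 1779 and 2071 under MS-275 (log2 fold change 2.19 ± 0.10). Cmpk2 and Rsad2, neighbors that are induced together by interferon, rose from 2.33 and 3.33 to 15.7 and 15.2 FPKM and from 0.942 and 2.0 to 9.42 and 9.38. The factor Irf7 rose from 12.9 and 12.9 to 32.6 and 34.6 FPKM, Zbp1 from 21.2 and 22.5 to 59.6 and 58.5 and Oas3 from 8.09 and 8.24 to 26.4 and 27.98. Mx1 fell from 2.92 and 2.71 to 1.06 and 1.34. Ifit3 and Mx2 were under 1 FPKM in all 4 libraries.

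Innate receptor and inflammasome genes were called about as often as all genes tested. The beta-glucan receptor Clec7a (dectin-1) fell from 272 and 305 to 83.9 and 78.7 FPKM and Clec4n (dectin-2) from 882 and 863 to 344 and 331. Mefv (pyrin), an inflammasome sensor, rose from 4.86 and 5.67 to 22.8 and 23.1 FPKM, as did Il18 (5.25 and 5.22 to 10.04 and 11.2), Tlr1 (3.20 and 3.07 to 5.60 and 6.58) and Tlr2 (142 and 136 to 203 and 217), while Tlr6 fell (12.7 and 12.9 to 6.87 and 8.58). Tlr2 was within the fold limit (0.54) with FPKM rescaled to a total without S100a8 and S100a9, and Tlr6 without MS-275 replicate 1 (-0.53). Of 23 members, 4 rose and 3 fell, near the 14.6% and 14.4% of all genes tested. Among 16 integrins and selectins, 3 rose and 2 fell, also near these shares, Itgae after passing the filter through the vehicle libraries. Pecam1 rose from 16.02 and 16.5 to 55.6 and 58.04 FPKM, Itgb7 from 19.4 and 16.7 to 55.9 and 60.8 and Itgal (CD11a) from 58.4 and 59.3 to 91.5 and 97.3. Itgax (CD11c), an integrin of dendritic cells and macrophages, fell from 46.2 and 42.03 to 9.54 and 10.02 and Itgae from 2.07 and 1.53 to 0.433 and 0.546.

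Of 21 stem and progenitor genes, 9 reached 1 FPKM in both groups, and 7 of these rose (median log2 fold change 1.54). Hoxa9, Spink2 and Hlf were under 1 FPKM in both vehicle libraries, so that they passed the filter through the MS-275 libraries and their increase is no separate evidence. The other 9 stayed below the filter, among them Flt3, Meis1 and Gata1. Kit, the receptor for stem cell factor, was at 16.2 and 16.6 FPKM under vehicle and 45.1 and 45.5 under MS-275, Prom1 (CD133) at 8.41 and 9.67 under vehicle against 30.1 and 29.4 under MS-275, and the transcription factor Myb at 2.75 and 2.15 under vehicle against 9.41 and 10.8 under MS-275. Cd34 rose from 2.81 and 2.56 to 9.14 and 10.2 FPKM and Egfl7 from 1.99 and 1.20 to 9.92 and 9.15. Exons of Egfl7 overlap Agpat2 on the other strand. Ly6a, described above, is a member as well. Gata2 fell from 2.29 and 2.09 to 0.774 and 1.51 FPKM, a call that was lost without vehicle replicate 1 (adjusted p = 0.126), without vehicle replicate 2 (0.0796) and without MS-275 replicate 1 (0.197, log2 fold change -0.35).

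The transcripts of the drug's targets stayed within the fold limit. Hdac1 was at 56.4 and 57.95 FPKM under vehicle and 71.04 and 73.4 under MS-275 (log2 fold change 0.33 ± 0.07), Hdac2 at 23.7 and 25.7 under vehicle against 21.7 and 19.9 under MS-275 (-0.24 ± 0.09) and Hdac3 at 26.1 and 25.2 under vehicle against 31.6 and 29.02 under MS-275 (0.23 ± 0.08). Of 9 HDAC genes tested, Hdac7, whose exons overlap Slc48a1, rose from 12.6 and 11.2 to 26.4 and 28.2 FPKM, and none fell. Among 36 genes of corepressor complexes, acetyltransferases and BET readers, 3 rose and 2 fell, beside 14.6% and 14.4% of all genes tested. Their median log2 fold change was -0.01. More rose without vehicle replicate 2, and 1 rose with FPKM rescaled to a total without S100a8 and S100a9. Chd3, a remodeler of the NuRD complex, rose from 1.33 and 0.898 to 8.55 and 7.34 FPKM, Mbd3, another NuRD subunit, fell from 59.2 and 52.7 to 19.3 and 21.5, and the acetyltransferase Kat2a (GCN5) fell from 13.8 and 12.4 to 5.15 and 6.72. Linker and variant histone genes rose in 7 of 14 and fell in none (median 0.60). H1f0 (H1.0), a linker histone of cells that have left the cycle, was at 26.6 and 26.3 FPKM under vehicle and 102 and 109 under MS-275 (log2 fold change 1.96 ± 0.07), Hist1h1c rose from 69.2 and 55.5 to 174 and 227 and Hist1h2bc from 30.6 and 39.98 to 75.6 and 82.7. H3f3a, the most abundant, was at 856 and 846 under vehicle against 759 and 783 FPKM under MS-275. Most histone transcripts lack a poly(A) tail and are poorly captured by the mRNA kit, so the values cover polyadenylated transcripts.

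No cell cycle gene was called higher, and the share called lower was near the 14.4% of all genes tested. Of 33 tested, none rose, 5 fell and the median log2 fold change was -0.22; without MS-275 replicate 1, 3 fell. Gins2, Ccnb1 and Cdc20, whose exons overlap Elovl1, fell from 17.5 and 19.1 to 6.88 and 7.12, from 31.4 and 27.8 to 13.98 and 13.2 and from 28.5 and 26.8 to 15.3 and 14.2 FPKM. Pcna was at 169.5 and 153 under vehicle against 163 and 144 FPKM under MS-275 and Mki67 at 47.04 and 49.3 under vehicle against 68.9 and 64.5 under MS-275, neither called. Of the inhibitors of cyclin-dependent kinases, Cdkn1a (p21) fell from 217 and 187 to 116 and 128 FPKM and Cdkn1b (p27) rose from 16.5 and 19.1 to 32.5 and 32.2. Cdkn2d rose from 45.1 and 44.4 to 65.3 and 80.2 FPKM, a call that was lost without MS-275 replicate 2 (log2 fold change 0.54). Of the 24 survival and death genes that reached 1 FPKM in both groups, 2 rose and 2 fell, beside 14.6% and 14.4% of all genes tested. Bcl2 was called lower after passing the filter through the vehicle libraries. Bmf, a BH3-only protein, rose from 4.44 and 4.96 to 17.2 and 16.4 FPKM, Fas from 44.8 and 49.8 to 85.7 and 72.2, and Bax fell from 302 and 262 to 143 and 146.

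In glycolysis and the hypoxia response, 5 of 28 genes rose and 4 fell, near the 14.6% and 14.4% of all genes tested. Slc2a3 (GLUT3) rose from 26.6 and 28.7 to 111 and 108 FPKM (log2 fold change 1.95 ± 0.07) while Slc2a1 (GLUT1) fell from 92.8 and 81.6 to 50.8 and 58.3 (-0.67 ± 0.09). Ndrg1 rose from 19.8 and 18.4 to 61.8 and 64.8 FPKM, the glycolytic enzyme Tpi1 fell from 334 and 294 to 161 and 176, and Gapdh was at 2530 and 2335 under vehicle against 1767 and 1955 under MS-275. Without vehicle replicate 1 or without MS-275 replicate 1, the count that fell was 2, and Slc2a1 was then under the fold limit (-0.58 and -0.57). Among iron-storage genes, which ranked among the most abundant transcripts, Fth1 rose from 8937 and 8533 to 16184 and 15936 FPKM while Ftl1 was at 22282 and 20297 under vehicle against 13984 and 15029 under MS-275, just within the fold limit.

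Nedd4, a HECT ubiquitin ligase, was at 5.50 and 5.53 FPKM under vehicle and 28.5 and 30.4 under MS-275 (chr9:72662346-72749852 in GRCm38). The log2 fold change was 2.22 ± 0.09 (limma adjusted p = 2.14e-06). The ratio of the mean FPKM values was 5.33, above the fold on the log2(FPKM + 1) scale, which understates the change of low genes. Trim6, a ligase of the TRIM family, rose from 1.52 and 1.31 to 6.17 and 7.05 FPKM, and Trim32 was at 2.26 and 2.55 under vehicle against 3.14 and 3.64 under MS-275 (not called, 0.37 ± 0.15). Of 11 ligases and adaptors tested, 2 rose and 1 fell, beside 14.6% and 14.4% of all genes tested. The one that fell was Smurf1, from 9.47 and 10.3 to 4.54 and 6.24 FPKM, a call that was lost without MS-275 replicate 1, where the log2 fold change lay just within the fold limit. Nedd4l and Wwp2, of the same HECT family, had log2 fold changes of -0.37 ± 0.14 and 0.28 ± 0.08.

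To find out where the response of PMN-MDSCs departed from that of M-MDSCs, the monocytic subset from the same kind of tumor, the difference between the 2 responses was tested over 11533 genes in a model of all 12 libraries. The response in PMN-MDSCs was higher in 1008 genes (8.74%) and lower in 1110 (9.62%). Of the genes that rose in PMN-MDSCs, 1378 were also tested in M-MDSCs, where their median log2 fold change was 0.54 and 88.0% were above 0, against -0.07 and 41.4% over all genes. Of those that fell, 1528 were tested there, with a median of -0.35 and 13.5% above 0. Ltf, Camp and Ngp were among the exceptions. Ltf was at 73.3 and 102 FPKM in M-MDSCs under vehicle and 29.1 and 31.8 under MS-275, and its response was higher in PMN-MDSCs by 3.97 ± 0.17 on the log2 scale (limma adjusted p = 5.03e-07). For Ngp the values in M-MDSCs were 470.1 and 544 under vehicle against 331 and 372 FPKM under MS-275 and the difference 3.74 ± 0.12 (adjusted p = 6.35e-08), and for Camp they were 51.8 and 82.8 under vehicle against 26.9 and 39.5 FPKM under MS-275 and 3.70 ± 0.27 (adjusted p = 1.28e-05). The log2 fold changes within M-MDSCs were -1.47, -0.52 and -0.98, of the opposite sign to those in PMN-MDSCs. Other secondary granule genes rose in both subsets, among them Chil3 (1333 and 1226 to 3007 and 3126 FPKM in M-MDSCs) and Cd177 (25.7 and 37.00 to 95.3 and 100.01).

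Counted over the lists, the response was higher in PMN-MDSCs in 8 and lower in 1 of 11 secondary granule genes, higher in none and lower in 2 of 6 primary granule genes, and higher in 6 and lower in 3 of 20 genes of gelatinase granules and mature neutrophils. Among secondary granule genes, Hp, which was under the fold limit in PMN-MDSCs, had a response 2.11 ± 0.10 higher than in M-MDSCs, Itgb2l 2.13 ± 0.19 and Lcn2 1.37 ± 0.10, and Mmp8 went the other way with -0.85 ± 0.18. The primary granule genes with a lower response were Mpo (-1.74 ± 0.37) and Ctsg (-1.22 ± 0.22), and Cxcr2 also had a lower response (-0.71 ± 0.17). Of the factors and oxidase subunits, Cebpe differed by 1.46 ± 0.20. Cybb, with 231 and 216 FPKM in M-MDSCs under vehicle and 194 and 184 under MS-275, differed by 1.49 ± 0.08 (adjusted p = 1.41e-06). Among the genes that fell, Gpnmb was at 126 and 117 under vehicle against 152 and 152 FPKM under MS-275 in M-MDSCs and differed by -3.00 ± 0.17 (adjusted p = 2.89e-06), Mgl2 by -2.53 ± 0.29 and H2-Aa by -1.49 ± 0.28. Ly6a rose in both subsets and more in M-MDSCs, from 1.39 and 1.58 to 224 and 254 FPKM (-2.60 ± 0.43). For Nedd4 the response was higher in PMN-MDSCs by 0.74 ± 0.16 (adjusted p = 0.00658), with 11.9 and 9.03 under vehicle against 28.3 and 33.5 FPKM under MS-275 in M-MDSCs.

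**Figure D5:**
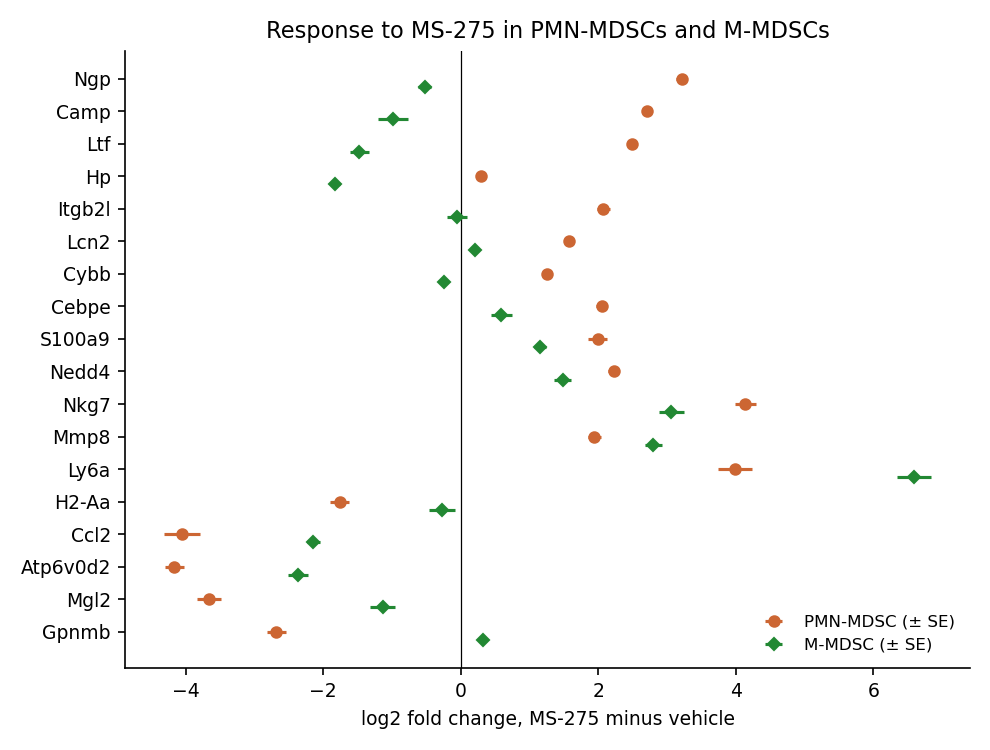
Log2 fold change under MS-275 (horizontal axis, MS-275 minus vehicle) of 18 genes in PMN-MDSCs (orange circles) and M-MDSCs (green diamonds), with bars of 1 SE where wider than the symbol. Ngp, Camp and Ltf lie above 0 in PMN-MDSCs and below 0 in M-MDSCs, and Gpnmb lies below 0 in PMN-MDSCs and above 0 in M-MDSCs.

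The PMN-MDSCs of mice given CXD101, a second inhibitor of HDAC1, HDAC2 and HDAC3, share the vehicle libraries with this comparison and are given here side by side only. In them Ngp was at 19038 and 19538 FPKM, Ltf at 4945 and 4981, Nedd4 at 20.8 and 20.7, Mrc1 at 20.1 and 23.7 and Cd74 at 179 and 165.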

How the data were processed

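Libraries were prepared from sorted cells with the TruSeq stranded mRNA kit and sequenced single-end. The submitters' processing notes name TopHat2 2.1.1, Bowtie2 2.2.8, SAMtools 0.1.18, Cuffdiff 2.2.1 and mm10; annotation and strand setting were not given in the sources used here. For each library the authors deposited a list of symbols with their FPKM, already scaled by library size and length, so no count test was run.

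limma 3.58.1 (intensity trend) was run on log2(FPKM + 1), which understates the change of low genes, over the 6 PMN-MDSC libraries; the CXD101 libraries thus share the estimate of the spread (3 residual and 4.79 prior degrees of freedom). p-values were adjusted by Benjamini-Hochberg over 11029 genes, and calls needed an adjusted p under 0.05 and a fold change above 1.5. The difference between subsets was an interaction contrast. Named genes were the 15 largest increases and decreases of at least 5 FPKM with separate groups, up to 3 called members each way and the most abundant member of each list, sorting markers and drug targets, and the 5 most abundant genes per group; other list members are named with their values, and some genes are not reported here. The members and lists were chosen with earlier results of these data known. Scripts were tested on simulated data. Locations came from GENCODE, where 95.7% of symbols matched. Promoters came from RefSeq; since 78.8% of the genes that rose had one, a comparison of promoters between called sets would be void and was not made. Alternatives were another pseudocount, filter, scaling, sample set, replicate block and fold limit, and leaving out each library.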

Additional observations from a re-analysis of the deposited data

Results flagged for a closer look

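The following genes are given because the response to MS-275 differed between PMN-MDSCs and M-MDSCs by an interaction test (limma on all 12 libraries, adjusted p under 0.05 and a difference above 1.5-fold). The 59 genes examined in this way are the largest increases and decreases, sorting markers, drug targets, secondary granule genes and the others whose difference is given in the text. Of these, 39 differed, 21 with a higher and 18 with a lower response in PMN-MDSCs. The largest increases and decreases were chosen by their response in the same PMN-MDSC libraries, so this count is not a rate. Over all 11533 genes, the response was higher in 8.74% and lower in 9.62%. Values are the log2 fold change in PMN-MDSCs minus that in M-MDSCs, and no explanation was tested.

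Among granule and neutrophil genes, the response was higher in PMN-MDSCs by 3.97 for Ltf, 3.74 for Ngp, 3.70 for Camp, 2.13 for Itgb2l, 2.11 for Hp, 2.1 for Asprv1, 1.37 for Lcn2, 0.99 for Fcnb, 0.84 for Cd177 and 0.83 for S100a9. It was also higher by 1.49 for Cybb and 1.46 for Cebpe. The difference was -0.85 for Mmp8, -1.74 for Mpo, -1.22 for Ctsg and -0.71 for Cxcr2.

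Among the genes with the largest increases, the difference was 3.67 for S100a5, 3.36 for Sytl3, 1.96 for Coro6, 1.44 for Nrep, 1.08 for Nkg7, 0.99 for Serpinb2 and -2.60 for Ly6a. It was 1.59 for Ly6c1, 0.85 for Ly6c2 and 0.74 for Nedd4.

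Among the genes with the largest decreases, the difference was -2.53 for Mgl2, -1.91 for Ccl2, -1.80 for Atp6v0d2, -1.61 for Fabp4, -1.56 for Rnase2a, -1.53 for Myof, -1.27 for C1qc, -1.25 for Mrc1 and -0.68 for Ctsk. It was -3.00 for Gpnmb and -1.49 for H2-Aa, which fell but were not among the largest decreases. The short RNAs Mir1668 and Snora23 also differed, by -5.64 and -4.28; both were listed at 0 in the MS-275 libraries of PMN-MDSCs, so these fitted values depend on the pseudocount and are no bound.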

How the results depend on the processing

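With the fold limit raised to 2, 731 genes were higher and 542 lower, and with the adjusted p alone 2812 were higher and 3201 lower, since the limits themselves then differ. Under the other settings both counts stayed within 1.5 times. They were 1778 and 1733 with a pseudocount of 0.1, 1688 and 1576 without a filter, and 1089 and 1276 with a minimum of 5 FPKM. They were 1705 and 1460 with median-of-ratios scaling and 1496 and 1567 with quantile normalization. With FPKM rescaled to a total without S100a8 and S100a9, both still tested, they were 1478 and 1764. Counts were 1592 and 1571 without the intensity trend, 1610 and 1588 with only the 4 libraries, and 1611 and 1597 with all 12. Leaving out each library in turn gave 1551 to 1637 higher and 1506 to 1652 lower. The share difference of S100a8 and S100a9 was 14.9 to 18.3 points without 1 library.

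Whether the numbers of replicates pair the libraries is not known. Deviations of same-numbered vehicle and MS-275 libraries correlated at -0.151 across genes, a single value that cannot decide it. With the replicate block, 1606 genes were higher and 1587 lower, and Gata2 lost its call (adjusted p = 0.0512). With crossed numbers, chosen after seeing the data, 1628 were higher and 1610 lower, beside 1619 and 1595 for the numbers as given in the same 4 libraries.

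Under quantile normalization, which gives every library the same highest value, the log2 fold change of S100a8 was -0.37 and that of Lyz2 -0.24, and S100a9 was within the fold limit at 0.37. With FPKM rescaled to a total without both S100 genes, Itgam was at -0.0462. Without 1 library, the log2 fold change ranged from -0.0548 to 0.0629 for Itgam, -0.46 to 0.21 for Prtn3, -0.37 to 0.69 for Mpo, -0.20 to 0.46 for Ctsg, -0.10 to 0.46 for H2-DMb1, -0.0223 to 0.147 for Arg2, -0.154 to 0.00773 for Adgre1, -0.162 to 0.017 for Pcna and -0.30 to 0.41 for Pf4; none of these was called, and the cause was not tested. Over all alternatives, values of named genes called higher kept their call in 1735 cases, lost it in 54 and changed sign in 1, and those of genes called lower kept it in 1367 and lost it in 45. The median of all genes moved from -0.03 to -0.08 with FPKM rescaled to a total without the S100 genes. Depth limits low genes, since 1 FPKM in 2 kb stood for 14.2 to 16.5 reads.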
